A study of Bos indicus with 9 samples.

Results

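The genes described are enzymes of cholesterol synthesis with INSIG1, a protein that holds the pathway's main transcription factor back, in corpora lutea of cows given equine chorionic gonadotropin (eCG). They were chosen by name. All probe sets that the array's probe table assigns to HMGCS1, IDI1, FDPS, FDFT1, SQLE, LSS, CYP51A1, DHCR7 or INSIG1 were taken. Of these 9 genes, 8 were measured by 13 probe sets, out of 9131 genes and 23966 probe sets tested. IDI1 is not in the probe table and was not analysed here. FDFT1 and LSS have 3 probe sets each, HMGCS1 has 2, and the other 5 genes have 1. A probe set is a group of short probes that together measure 1 transcript, and the probe set with the highest mean over all animals stands for its gene.

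The corpus luteum forms from the ovulated follicle and secretes progesterone, and eCG is a mare's placental hormone that, in cattle, has the activity of FSH as well as LH. All tissue came from crossbred Nelore cows (Bos indicus) of 2 to 5 years, killed 6 days after ovulation, and every animal, controls included, had its cycle synchronised by progesterone devices together with estradiol benzoate. The 3 superovulated cows had 2000 IU of eCG on day 4 of the protocol, the 3 stimulated cows had 400 IU on day 8, and the 3 control cows had none. Dose and day of eCG differ together between the treated groups and cannot be told apart. Each cow gave 1 array. The labels call the animals of a group biological replicates and do not say whether more than 1 corpus luteum of a superovulated cow was used.

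Cholesterol is built from acetyl-CoA by way of mevalonate, farnesyl diphosphate, squalene and lanosterol. Most enzymes of the route are targets of SREBP2, a transcription factor held in the endoplasmic reticulum with its escort SCAP. When membrane cholesterol is high, INSIG proteins keep SCAP and SREBP2 there, and when it is low both move to the Golgi, where proteases free the active factor. Luteal cells take most cholesterol for progesterone from circulating lipoproteins and can also make it themselves.

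Values are restored log2 signals, since each deposited number had lost its decimal mark. A run of digits that starts with 1 can stand for a value near 1 or for one above 10. For 10 of the 13 probe sets this choice was open on all 9 arrays. There the spread between arrays and exact ties between arrays had to settle it. The lowest posterior probability of the bright reading among the 10 was 99.56%. Array medians lay between 4.18 and 4.24. STAR, CYP11A1 and HSD3B1, which carry out the first steps of luteal steroid synthesis, had means over the 9 animals of 14.74, 14.13 and 14.42, each brighter than at least 99.6% of probe sets, so the defining markers of luteal steroidogenic cells were present. In bulk tissue, fewer cells of a type and less RNA per cell cannot be told apart. The probe sets that stand for the 8 genes were each brighter than at least 92% of all probe sets, so none of the 8 rests on a dim signal. The dimmest probe sets of FDFT1 (mean 1.96) and LSS (mean 2.51) lay among the dimmest 25% of probe sets, and the other 11 lay above them.

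HMGCS1 makes HMG-CoA, a precursor of mevalonate. Its brighter probe set had 14.71, 14.53 and 14.67 in superovulated corpora lutea, 14.77, 14.70 and 14.71 in stimulated and 14.71, 14.71 and 14.50 in control ones. The groups overlapped, and the lowest values belonged to 1 control and 1 superovulated animal. A dimmer probe set of HMGCS1 had 12.64, 12.09 and 12.18 in superovulated, 12.62, 12.22 and 12.38 in stimulated and 12.08, 12.21 and 11.57 in control. Here all 3 stimulated animals lay above all 3 controls, by 0.008 at the nearest values, while the brighter probe set showed no such order.

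FDPS makes farnesyl diphosphate, from which sterols, ubiquinone and the lipid anchors of proteins are built. It had 13.96, 13.58 and 13.78 in superovulated animals, 14.01, 13.75 and 13.83 in stimulated and 13.94, 13.67 and 13.69 in control. FDFT1, squalene synthase, takes the first step that leads to sterols alone. Its brightest probe set had 12.001, 11.45 and 12.08 in superovulated, 12.30, 12.06 and 12.47 in stimulated and 12.33, 12.12 and 11.58 in control animals. Both genes overlapped between all groups. FDFT1 had the widest spread of the 8, with a within-group SD of 0.32 against 0.18 for the median gene on the array, and HMGCS1 had the narrowest at 0.09.

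SQLE, squalene epoxidase, is a slow step of the sterol branch. It had 13.83, 13.42 and 13.69 in superovulated, 13.84, 13.70 and 13.88 in stimulated and 13.85, 13.62 and 13.50 in control animals, again with overlap. LSS folds the product of SQLE into lanosterol, the first sterol. Its brightest probe set had 11.08, 10.66 and 10.88 in superovulated, 11.32, 11.09 and 11.39 in stimulated and 11.26, 11.09 and 11.03 in control animals. The 3 superovulated animals lay below the 3 stimulated ones, with the nearest values 0.012 apart, while superovulated and control animals overlapped. A second LSS probe set, with a mean of 5.37, had 5.73, 5.01 and 5.28 in superovulated and 5.40, 5.44 and 5.63 in stimulated animals and overlapped.

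CYP51A1 removes a methyl group from lanosterol. It had 13.69, 13.30 and 13.47 in superovulated, 13.52, 13.47 and 13.69 in stimulated and 13.62, 13.49 and 13.04 in control animals, and its lowest value was that of control replicate 3. DHCR7, which turns 7-dehydrocholesterol into cholesterol, had 13.04, 12.58 and 13.33 in superovulated, 12.81, 13.06 and 12.95 in stimulated and 12.91, 12.99 and 12.85 in control animals. Its lowest and its highest value were both in superovulated animals. INSIG1 is itself an SREBP2 target and closes a feedback loop. It had 13.59, 13.24 and 13.24 in superovulated, 13.21, 13.13 and 13.21 in stimulated and 13.37, 13.18 and 13.44 in control animals. Every superovulated value of INSIG1 lay above every stimulated one, by 0.031 at the nearest, and control overlapped with both.

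**Figure D1:**
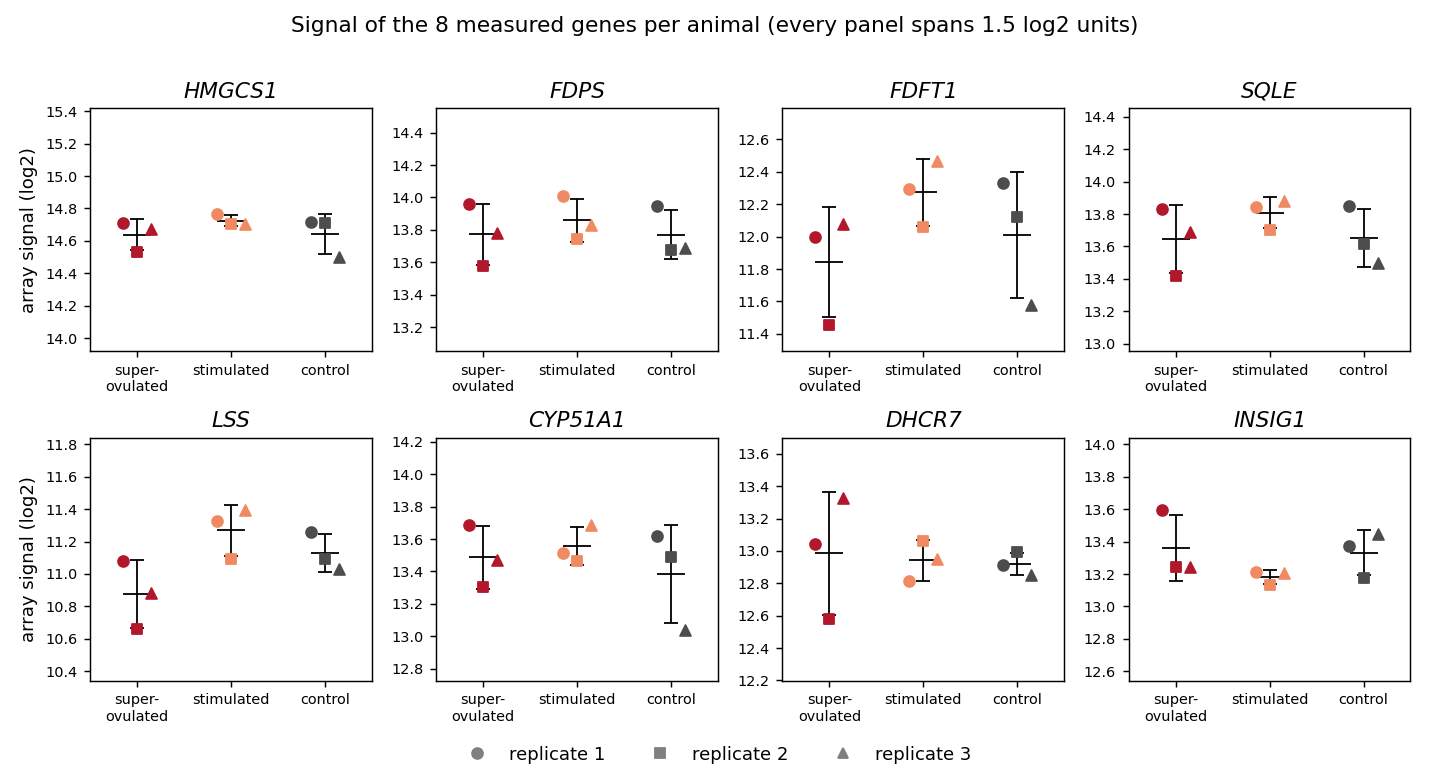
Log2 array signal (y axis) of the 8 genes in each animal, by group, with the group mean as a horizontal line and the SD as error bars (n = 3 per group). Every panel spans 1.5 log2 units, and within-group spread is as large as the distance between group means in most panels. Replicate 2 is the lowest superovulated animal in 7 panels and shares the lowest value with replicate 3 for INSIG1.

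Among the 8 genes, the log2 fold changes farthest from 0 were those of FDFT1 and LSS in superovulated against stimulated corpora lutea, both negative. LSS averaged 10.87 ± 0.21 in superovulated and 11.27 ± 0.16 in stimulated animals (SD, n = 3 each), a log2 fold change of -0.40 (SE 0.13, 95% interval -0.69 to -0.10, limma adjusted p = 0.446). FDFT1 averaged 11.84 ± 0.34 in superovulated and 12.27 ± 0.21 in stimulated animals (SD, n = 3 each), a log2 fold change of -0.43 (SE 0.24, 95% interval -0.97 to 0.12, limma adjusted p = 0.605). Neither passed. For both genes the other probe sets moved less, with -0.04 and -0.01 for FDFT1 and -0.15 and -0.02 for LSS. INSIG1 had 13.36 ± 0.20 in superovulated and 13.18 ± 0.05 in stimulated animals (SD, n = 3 each), a log2 fold change of 0.18 (SE 0.12, limma adjusted p = 0.659).

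None of the 13 probe sets passed an adjusted p of 0.05 in limma for superovulated against stimulated, where 0.00417% of all probe sets passed. At an unadjusted p under 0.05 the brightest LSS probe set was the 1 of 13, against 9.66% of all probe sets. Groups did not overlap for 2 of the 13, LSS as lower and INSIG1 as higher, against 13.5% of all probe sets, 6.89% as lower and 6.64% as higher. HMGCS1, FDPS, SQLE and CYP51A1 had log2 fold changes of -0.09, -0.09, -0.16 and -0.07, and DHCR7 had 0.04. The median over the 8 genes was -0.09, with 2 of 8 positive, beside 0.01 and 53.2% positive over all 9131 genes. The 95% intervals of the 8 genes lay between -0.97 and 0.45.

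Superovulated against control asks how the luteal transcriptome differed after the high dose of eCG. LSS averaged 10.87 ± 0.21 in superovulated and 11.13 ± 0.12 in control animals (SD, n = 3 each), a log2 fold change of -0.25 (SE 0.13, limma adjusted p = 0.821). Its second probe set had 0.05. FDFT1 had -0.17 (SE 0.24), CYP51A1 0.10 (SE 0.16), DHCR7 0.07 (SE 0.17) and INSIG1 0.03 (SE 0.12). HMGCS1, FDPS and SQLE had -0.004, 0.003 and -0.008, so their group means all but coincided. The dimmer probe set of HMGCS1 had 0.35 (SE 0.21, limma adjusted p = 0.848).

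In superovulated against control 0 of the 13 passed in limma, as did 0% of all probe sets, and 0 of 13 had an unadjusted p under 0.05, against 6.2% of all. No probe set of the 13 had groups that did not overlap, against 10.9% of all. The median log2 fold change over the 8 genes was -0.0003, with 4 of 8 positive, beside 0.01 and 53.3% over all genes. The 95% intervals of the 8 ran from -0.71 to 0.48.

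Stimulated against control asks the same of the low dose. Of the 8 genes 7 had a positive log2 fold change, beside 49.1% of all genes, and the median was 0.12, beside -0.003 over all genes. FDFT1 had 12.27 ± 0.21 in stimulated and 12.01 ± 0.39 in control animals (mean ± SD, n = 3 each), a log2 fold change of 0.26 (SE 0.24, limma adjusted p = 0.890). CYP51A1 had 0.17 (SE 0.16), SQLE 0.16 (SE 0.13), LSS 0.14 (SE 0.13), FDPS 0.09 (SE 0.13), HMGCS1 0.08 (SE 0.08) and DHCR7 0.02 (SE 0.17). INSIG1 was the 1 negative value, with 13.18 ± 0.05 in stimulated and 13.33 ± 0.14 in control animals (mean ± SD, n = 3 each) and a log2 fold change of -0.15 (SE 0.12, limma adjusted p = 0.885). The 95% intervals of the 8 genes ran from -0.41 to 0.81. Without control replicate 3 the median was 0.03, with 0.05 for FDFT1, 0.003 for CYP51A1, 0.01 for HMGCS1, 0.05 for FDPS, 0.08 for SQLE and 0.09 for LSS, and DHCR7 turned to -0.01.

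The dimmer probe set of HMGCS1 had the largest difference, with 12.40 ± 0.20 in stimulated and 11.95 ± 0.34 in control animals (mean ± SD, n = 3 each), a log2 fold change of 0.45 (SE 0.21, 95% interval -0.03 to 0.93, limma adjusted p = 0.784). None of the 13 passed in limma for stimulated against control, where 0.00417% of all probe sets passed, and 0 of 13 had an unadjusted p under 0.05, against 6.41% of all. That probe set was the 1 of 13 whose groups did not overlap, as higher, against 11.5% of all probe sets in either direction and 5.79% as higher. In the moderated F test over the 3 groups 0 of 13 passed (adjusted p between 0.640 and 0.982), against 0.00417% of all, and LSS was the 1 of 13 with an unadjusted p under 0.05, against 7.69% of all. The comparisons share their groups, so these counts are not independent of each other.

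**Figure D2:**
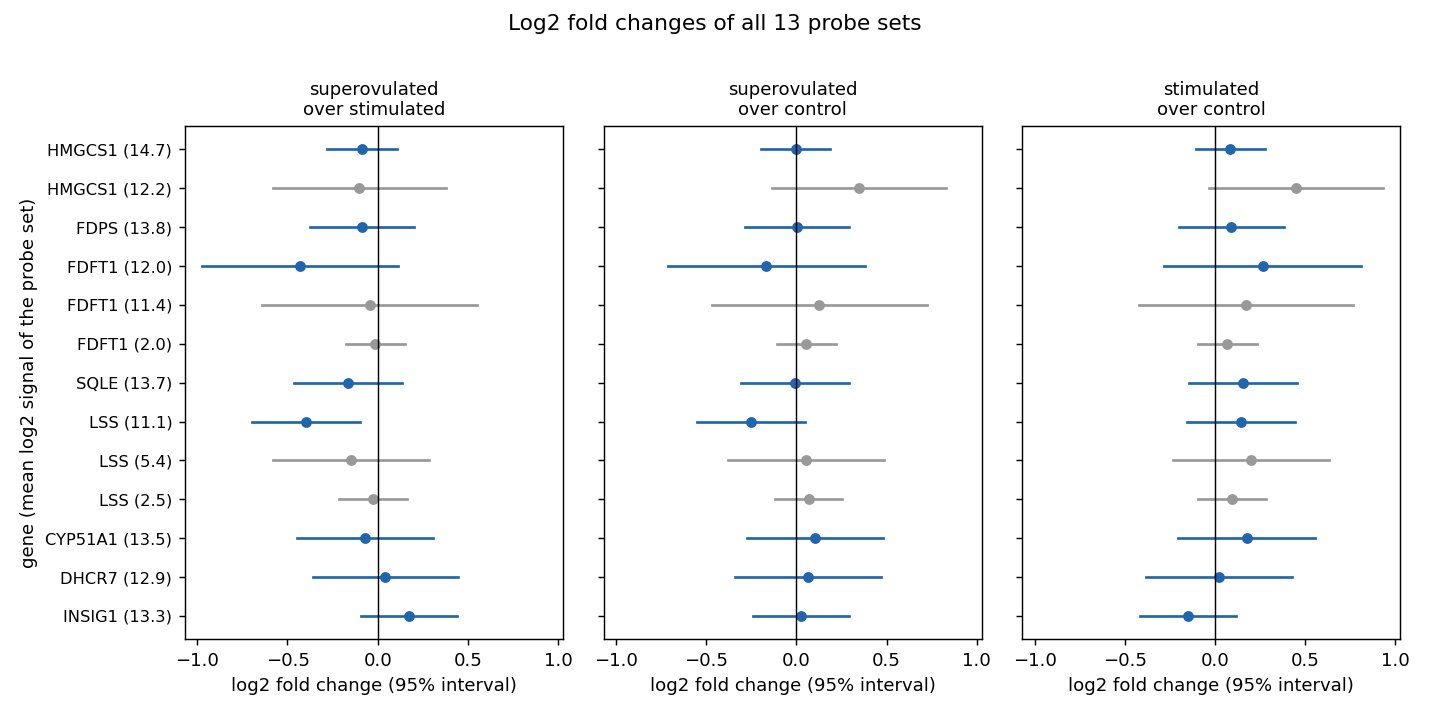
Log2 fold change (x axis) of all 13 probe sets in the 3 comparisons, with the 95% interval of the limma fit as bars; gene names carry the mean log2 signal of the probe set. Blue marks the probe set that stands for the gene and grey the others; the interval of LSS for superovulated over stimulated, -0.69 to -0.10, is the 1 that leaves out 0.

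The rest of the pathway was read from lists of named genes. Of the other enzymes that build cholesterol 8 were measured: ACAT2, which joins acetyl-CoA units, MVK, PMVK and MVD, which turn mevalonate into isopentenyl diphosphate, and TM7SF2, MSMO1, NSDHL and EBP, which reshape lanosterol. None passed in any comparison. Their median log2 fold change was -0.10 for superovulated against stimulated, with 1 of 8 positive, 0.08 for superovulated against control, with 6 of 8 positive, and 0.19 for stimulated against control, with 7 of 8 positive. Their mean signal was 11.59, 11.24 and 11.07 in control and 11.66, 11.35 and 11.50 in stimulated animals. Control replicate 3, without which the 8 genes studied had a median of 0.03 for stimulated against control, was thus the lowest control here too. MVD had 9.46 ± 0.48 in superovulated, 9.79 ± 0.39 in stimulated and 9.16 ± 0.54 in control animals (mean ± SD, n = 3 each), with a log2 fold change for stimulated against control of 0.63 (SE 0.34, limma adjusted p = 0.836). For the same comparison ACAT2 had 0.18 (SE 0.16). EBP, a sterol isomerase, had 0.20 (SE 0.14) for superovulated against stimulated, the 1 positive value of its list, and MSMO1 had -0.10 (SE 0.09). Against control, superovulated animals had 0.13 for EBP and 0.29 for MVD.

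Of the genes that govern SREBP2, SREBF2, which encodes SREBP2, had 5.69 ± 0.12 in superovulated, 5.73 ± 0.19 in stimulated and 5.54 ± 0.26 in control animals (mean ± SD, n = 3 each). SCAP had 5.70 ± 0.79 in superovulated, 5.45 ± 0.18 in stimulated and 5.58 ± 0.32 in control animals, and INSIG2, the second INSIG gene, had 9.87 ± 0.11 in superovulated, 10.01 ± 0.14 in stimulated and 9.84 ± 0.01 in control animals (mean ± SD, n = 3 each). A dimmer SCAP probe set had means in the opposite order, 3.92 in superovulated, 4.21 in stimulated and 4.02 in control animals, and its others were dimmer still. For SREBF2 and SCAP the groups overlapped, while all 3 stimulated animals lay above all 3 controls for INSIG2. Stimulated and control animals did not overlap for 11.5% of all probe sets in either direction, 5.79% as higher. The log2 fold change of INSIG2 was 0.18 (SE 0.09, limma adjusted p = 0.814) for stimulated against control, and 2 dimmer probe sets of it had 0.04 and 0.19. SREBP2 is controlled mainly by where the protein is and by its cleavage, which arrays do not measure.

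MARCHF6, a ubiquitin ligase of the endoplasmic reticulum that degrades SQLE, had the smallest p of the regulators. It had 10.21, 9.86 and 10.46 in superovulated, 10.80, 10.63 and 11.05 in stimulated and 10.61, 10.46 and 10.33 in control animals. The superovulated animals lay below the stimulated ones without overlap, and the controls did too (nearest values 10.61 and 10.63), while superovulated and control animals overlapped. Of all probe sets, 6.89% were lower without overlap in superovulated than in stimulated animals. For 5.79% of all, stimulated animals were higher than controls without overlap. The log2 fold change for superovulated against stimulated was -0.65 (SE 0.17, limma adjusted p = 0.370), and it was -0.29 (SE 0.17) for superovulated against control and 0.36 (SE 0.17) for stimulated against control. A second MARCHF6 probe set had -0.68 for superovulated against stimulated, while the other 2 had 0.01 and -0.08. ERLIN1, a membrane protein of the endoplasmic reticulum, had -0.58 (SE 0.30, limma adjusted p = 0.580) for superovulated against stimulated and -0.35 (SE 0.30) for superovulated against control. Of the 12 regulators 0 passed in any comparison. Their medians were -0.11 for superovulated against stimulated, 0.02 for superovulated against control and 0.13 for stimulated against control.

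Other SREBP targets, 9 genes that act mostly in cholesterol transport or lipid synthesis, had medians of 0.02 for superovulated against stimulated, 0.03 for superovulated against control and -0.01 for stimulated against control, and 0 passed. FADS2, a fatty acid desaturase, had 10.97 ± 0.21 in superovulated, 10.55 ± 0.16 in stimulated and 10.86 ± 0.08 in control animals (mean ± SD, n = 3 each). Its log2 fold changes were 0.43 (SE 0.12, limma adjusted p = 0.407) for superovulated against stimulated and -0.31 (SE 0.12, limma adjusted p = 0.773) for stimulated against control. NPC1, which moves cholesterol out of lysosomes, had 0.29 (SE 0.15) for stimulated and 0.15 (SE 0.15) for superovulated animals, each against control. LPIN1, a phosphatidate phosphatase, had 0.16 (SE 0.13) for superovulated against stimulated, and SQSTM1, an autophagy receptor, had 0.12 (SE 0.13) for superovulated against control.

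The branch that leads from farnesyl diphosphate to ubiquinone, dolichol and protein anchors, 10 genes, had medians of 0.06 for superovulated against stimulated, 0.13 for superovulated against control and 0.04 for stimulated against control, with 0 passing. COQ2, an enzyme of ubiquinone synthesis, had 0.48 (SE 0.18, limma adjusted p = 0.727) for stimulated against control and -0.29 (SE 0.18) for superovulated against stimulated, and a dim second probe set of it had -0.20 and 0.11 in these comparisons. RCE1, a protease that trims prenylated proteins, had 0.30 (SE 0.09, limma adjusted p = 0.414) for superovulated against stimulated, 0.19 (SE 0.09) for superovulated against control and -0.10 (SE 0.09) for stimulated against control. NUS1, part of the enzyme that makes dolichol, had 0.14 (SE 0.07) for superovulated against control.

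Liver X receptors answer to oxysterols when cholesterol is high. Of the 9 genes of this arm 0 passed, with medians of -0.13 for superovulated against stimulated, 0.15 for superovulated against control and 0.01 for stimulated against control. CYP27A1, which makes an oxysterol, had 9.54 ± 0.12 in superovulated, 9.88 ± 0.34 in stimulated and 9.20 ± 0.14 in control animals (mean ± SD, n = 3 each), with a log2 fold change of 0.68 (SE 0.17, limma adjusted p = 0.561) for stimulated against control. RXRA, a partner receptor, had 0.46 (SE 0.11, limma adjusted p = 0.529) for stimulated against control and -0.26 (SE 0.11) for superovulated against stimulated. NR1H3, the receptor LXR alpha, had -0.37 (SE 0.13, limma adjusted p = 0.795) and RXRB 0.26 (SE 0.08, limma adjusted p = 0.758) for superovulated against control. LPCAT3, a phospholipid-remodelling enzyme, had 0.49 (SE 0.15, limma adjusted p = 0.426) for superovulated against stimulated, though a second probe set had -0.43. MYLIP, a ubiquitin ligase, had 8.95, 8.47 and 9.59 in superovulated, 9.18, 10.67 and 9.30 in stimulated and 8.66, 9.35 and 8.82 in control animals, with stimulated replicate 2 well above the rest. Macrophages express several of these genes, and the myeloid markers (13 of 14 measured, 12 of them positive for superovulated and 13 for stimulated against control, 0 passing) had a mean level of 6.44 to 7.38 in superovulated, 6.74 to 7.72 in stimulated and 5.28 to 6.27 in control animals. Its part in these values was not tested.

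Genes that use cholesterol for steroid synthesis, 9 in all, had medians of -0.09 for superovulated against stimulated, -0.09 for superovulated against control and -0.002 for stimulated against control, and 0 passed. STAR, which delivers cholesterol to the inner mitochondrial membrane, had 14.67 ± 0.13 in superovulated, 14.79 ± 0.02 in stimulated and 14.76 ± 0.11 in control animals (mean ± SD, n = 3 each). HSD3B1, which makes progesterone, had -0.13 (SE 0.08) for superovulated against stimulated and -0.17 (SE 0.08) for superovulated against control. NCEH1, a cholesteryl ester hydrolase, had 6.07, 6.43 and 6.26 in superovulated, 6.64, 6.47 and 6.41 in stimulated and 6.92, 7.58 and 7.26 in control animals. All treated animals lay below all controls, with log2 fold changes of -1.002 (SE 0.17, limma adjusted p = 0.560) for superovulated and -0.75 (SE 0.17, limma adjusted p = 0.529) for stimulated animals. Groups did not overlap for 10.9% of all probe sets in superovulated against control and 11.5% in stimulated against control, in either direction. A second, dimmer NCEH1 probe set had 2.84, 3.50 and 3.05 in superovulated, 3.47, 3.57 and 3.31 in stimulated and 5.24, 7.85 and 6.05 in control animals. It gave the same order with larger log2 fold changes against control, -3.25 (SE 0.58, limma adjusted p = 0.596) for superovulated and -2.93 (SE 0.58, limma adjusted p = 0.451) for stimulated animals. TSPO, a protein of the outer mitochondrial membrane, had 0.94 (SE 0.27, limma adjusted p = 0.407) for superovulated against stimulated and -0.64 (SE 0.27, limma adjusted p = 0.779) for stimulated against control.

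Between animals, most of the cholesterol synthesis genes had their high and low values in the same animals, within groups as well as across them. For a score per animal, each of the 8 genes was centred and scaled to SD 1 over the 9 animals, and the 8 values were averaged. Superovulated animals had scores of 0.71, -1.42 and 0.06, stimulated animals 0.51, -0.06 and 0.60, and control animals 0.63, -0.15 and -0.89. The lowest scores belonged to superovulated replicate 2 and control replicate 3, so the groups overlapped widely and the spread lay inside the superovulated and control groups. In log2 signal the mean of the 8 genes was 13.24, 12.85 and 13.14 in superovulated, 13.22, 13.12 and 13.27 in stimulated and 13.25, 13.11 and 12.95 in control animals.

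**Figure D3:**
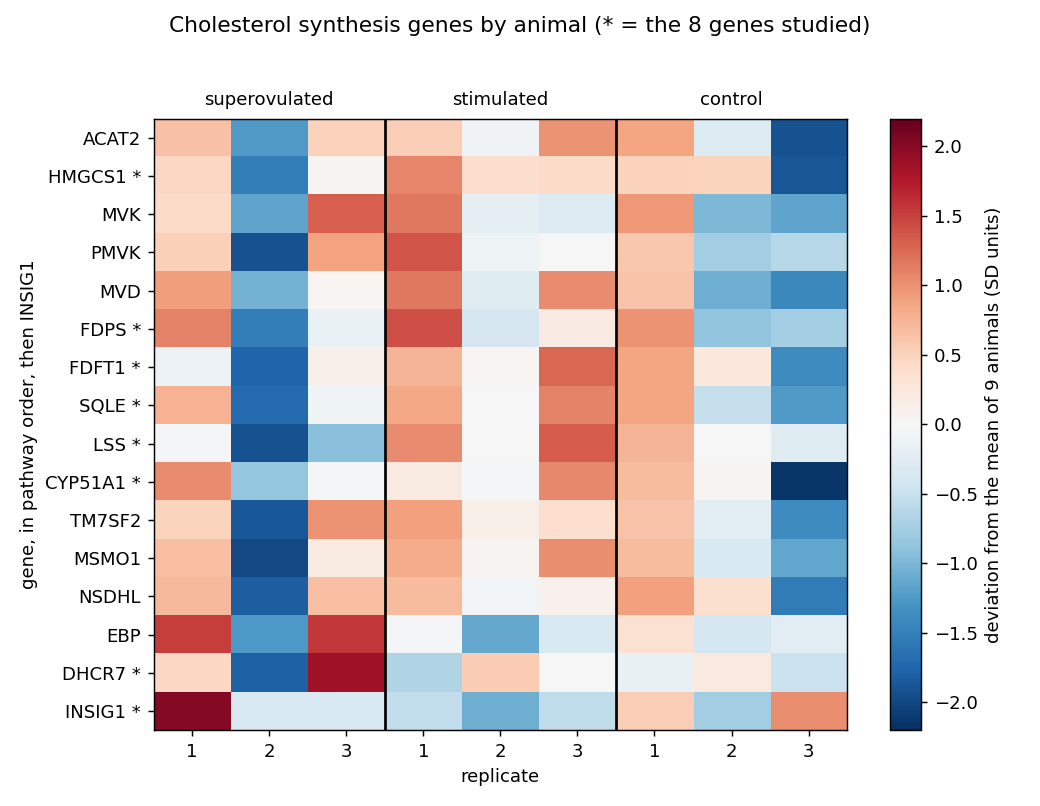
Deviation of each gene from its mean over the 9 animals, in SD units (colour), for the 16 measured cholesterol synthesis genes (rows, in pathway order, INSIG1 last; asterisks mark the 8 genes studied) and each animal (columns, by group and replicate). Superovulated replicate 2 is blue in nearly every row and control replicate 3 in most. DHCR7 and INSIG1 follow the other rows least (r = 0.35 and -0.02 with the other 7 genes studied), and EBP has r = 0.56 with the mean of the 8.

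Pearson correlations over the 9 animals between the 8 genes, which share the arrays and their normalisation, are given as descriptions. Over the 28 pairs the median was 0.59, from -0.25 to 0.91, with 23 positive. The median over all pairs of genes on the array was 0.006, and 6.82% of all pairs, or 9.34% of pairs among 2407 genes with a mean of at least 10, reached 0.59. A split made after the values were seen separates 6 enzymes, HMGCS1, FDPS, FDFT1, SQLE, LSS and CYP51A1, from DHCR7 and INSIG1. The 15 pairs among the 6 enzymes had a median of 0.83, from 0.53 to 0.91. That median was reached by 0.627% of all pairs and 1.06% of pairs of bright genes. The split left out DHCR7 and INSIG1, which followed the other genes least, and so raised the median by choice. These shares therefore cannot show how rare such a median is. The closest pair was FDFT1 with SQLE at 0.91. The 13 pairs with DHCR7 or INSIG1 had a median of 0.12, from -0.25 to 0.43.

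With each gene's group means removed, the correlations were no lower, with medians of 0.65 over the 28 pairs, 0.87 among the 6 enzymes and 0.34 for pairs with DHCR7 or INSIG1. They were lower without the animals of lowest score. Without superovulated replicate 2 the medians were 0.46, 0.71 and -0.10 in that order, and without both superovulated replicate 2 and control replicate 3 they were 0.41, 0.52 and -0.26. In the last case 13.2% of all gene pairs reached the level of the 6 enzymes, a share that the choice of the 6 limits in the same way.

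SQLE followed the mean of the other 7 genes most closely, with r = 0.97 (rho = 0.87), and r = 0.92 without the 2 animals with the lowest scores. FDPS had 0.83 (rho = 0.88) and 0.76, and CYP51A1 had 0.79 (rho = 0.88) and 0.80. These 3 kept their likeness over the remaining 7 animals. HMGCS1 had 0.83 (rho = 0.63) and 0.26, FDFT1 0.86 (rho = 0.58) and 0.33, and LSS 0.71 (rho = 0.56) and 0.37, so their r was much lower over the 7. The 2 animals left out were those whose scores lay farthest from the median score. Leaving them out narrows the range of the score, which can itself lower r. DHCR7 had 0.35 (rho = 0.32) and -0.65, and INSIG1 -0.02 (rho = 0.27) and 0.38.

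Of the 9123 other genes, the 5 whose pattern was most like the score over the 9 animals were MSMO1 (r = 0.99), CETN2 (0.96), AP1AR (0.93), ACAT2 (0.92) and MED11 (0.92). MSMO1 acts downstream of CYP51A1 on the lanosterol route and ACAT2 supplies acetoacetyl-CoA to HMGCS1, while CETN2 is a centrin and MED11 a Mediator subunit. Without the 2 animals with the lowest scores these 5 had r of 0.92, 0.88, 0.92, 0.88 and 0.71. NSDHL and TM7SF2 came next at ranks 6 and 7 (r = 0.92 and 0.91, and 0.47 and 0.48 over the 7 animals), and MVD stood at rank 20 (0.88 and 0.91). ACLY, which makes cytosolic acetyl-CoA, and FASN, fatty acid synthase, stood at ranks 11 and 17.

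As a list, the 8 other enzymes of cholesterol synthesis had a median r of 0.90 with the score, from 0.56 for EBP to 0.99, and 6 of 8 were over 0.8, beside a median of -0.01 and 1.04% over 0.8 for all 9123 genes. Over the 7 animals the median was 0.50, with 3 of 8 over 0.8, beside 2.03% of all genes. The SREBP regulators (12 genes) had a median of 0.49, cholesterol use in steroid synthesis (9) 0.64, other SREBP2 targets (9) 0.34, the liver X receptor arm (9) 0.21 and the non-sterol isoprenoid branch (10) -0.10. Over the 7 animals these medians were 0.19 for the regulators, 0.67 for cholesterol use, 0.37 for the other targets, -0.04 for the liver X receptor arm and 0.44 for the isoprenoid branch, so the order of the lists differed. SREBF2 itself had 0.50 over the 9 animals and 0.53 over the 7, and SREBF1 had 0.49 and 0.81. TMEM97, a sterol-binding membrane protein on both the regulator and the target list, had 0.76 over the 9 and -0.02 over the 7.

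**Figure D4:**
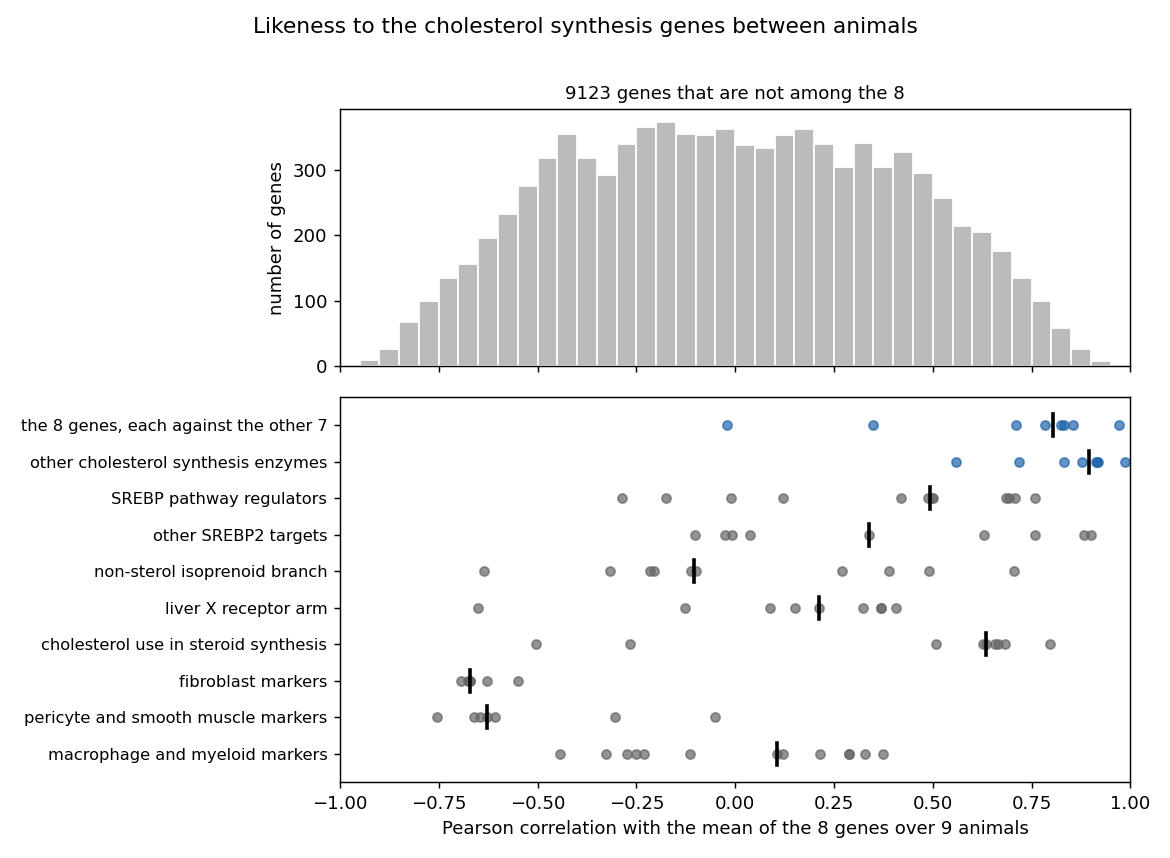
Top, the number of genes (y axis) by Pearson correlation (x axis) with the mean of the 8 genes over the 9 animals, for the 9123 other genes. Bottom, 1 point per gene for each list, with the list median as a black bar; the other cholesterol synthesis enzymes lie between 0.56 and 0.99, and fibroblast markers between -0.69 and -0.55.

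Other measures of the same arrays moved with the score, and their part in it was not tested. Fibroblast markers (6 genes, mean log2 signal 12.38 to 13.51 in superovulated, 11.89 to 12.86 in stimulated and 12.51 to 12.64 in control animals) all ran against it, with a median r of -0.67. Their mean had r = -0.72 with the score (rho = -0.45) and -0.36 without the 2 animals with the lowest scores. Superovulated replicate 2 had the highest fibroblast level of the 9 animals, at 13.51, and the lowest score. The mean of pericyte and smooth muscle markers (7 genes) had r = -0.59, with a median over its genes of -0.63. Markers of the luteal steroidogenic cell (8 genes) had means of 11.98 to 12.33 in superovulated, 11.87 to 12.14 in stimulated and 12.05 to 12.34 in control animals. Their mean had r = 0.35 with the score. The median over the 8 genes was higher, at 0.57 (from -0.36 to 0.74), and 0.42 over the 7 animals. The median r with the score was 0.04 for endothelial markers (10 genes), 0.11 for myeloid (13), 0.31 for T and NK cell (9), -0.32 for adipocyte (4) and -0.36 for proliferating cell markers (7). Over the 7 animals these medians were -0.42 for endothelial, -0.13 for myeloid, 0.38 for T and NK cell, 0.20 for adipocyte and 0.01 for proliferating cell markers, so those for endothelial, myeloid, adipocyte and proliferating cell markers changed sign. The adipocyte markers were all dim, with means from 1.96 (ADIPOQ) to 2.56 (LEP). T and NK cell markers had means from 2.33 (CD4) to 4.58 (GNLY). KDR (2.45) and VWF (2.19) among the endothelial and ITGAM (2.47) among the myeloid markers were dim too. Whether such dim signals lay above background was not tested, so their r cannot show how cell content moved with the score.

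The 3' minus 5' signal of control transcripts is a sign of RNA quality, and for EF1A and actin it moved with the score too. For both, the difference tended to be less negative in animals of higher score. For the EF1A control transcript, the 3' minus 5' signal was -1.60, -1.83 and -1.69 in superovulated, -1.66, -1.77 and -1.60 in stimulated and -1.77, -1.83 and -1.90 in control animals. It had r = 0.77 with the score (rho = 0.85), and 0.70 without the 2 animals with the lowest scores. The same difference for actin had r = 0.66, and 0.92 over the 7 animals. The other control transcripts did not run the same way: GAPDH had 0.04 (-0.28 over the 7), the one labelled Cyph -0.09 (-0.03), eIF-4E -0.55 (-0.19) and GST -0.42 (-0.39). The part of RNA quality in the shared pattern was not tested either.

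**Figure D5:**
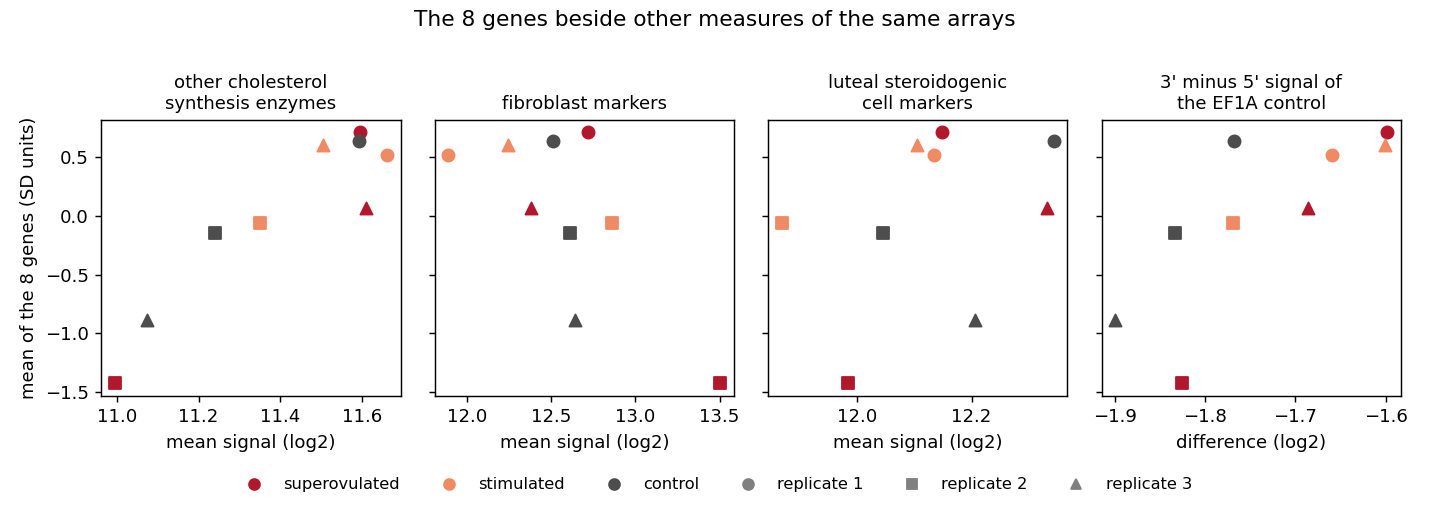
Mean of the 8 genes per animal in SD units (y axis) against the mean log2 signal of the other cholesterol synthesis enzymes, of fibroblast markers and of luteal steroidogenic cell markers, and against the 3' minus 5' log2 signal of the EF1A control (x axes). Points are animals, coloured by group and shaped by replicate; superovulated replicate 2, at a score of -1.42, is lowest for the enzymes and highest for fibroblast markers.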

How the data were processed

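RNA of 9 corpora lutea was hybridised as biotinylated cRNA to Affymetrix bovine arrays, 1 per cow, per the labels. The deposited table holds 24128 probe sets, 112 of them controls, as other numbers in no standard unit: digit runs without a decimal mark, from the authors. The mark was restored below a limit of 16. Runs open to both readings made up 15.5% of cells, and 50 probe sets left undecided were left out. For probe sets open on all 9 arrays the posterior limit was 0.95, with 1.53 wrong readings expected among those kept. The 1563 probe sets settled by their other arrays carry no such estimate. That values are log2 is assumed. Their range, 0.85 to 15.36, was bounded by the limit of 16 and cannot show the unit. For the deposited log2 signals, the sources used here do not give the log base, the probe summary or the normalisation, and none was added. Arrays carry no read depth; their number limits precision.

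Of the probe sets 13292 carry 1 symbol, 86 several and 10638 none. The symbols of all 8 measured genes also stand in the RefSeq table of assembly NIAB-ARS_B.indTharparkar_mat_pri_1.0, used for names alone.

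Groups came from the sample titles. Limma 3.58.1 (R 4.3.3; lmFit and eBayes, 1 mean per group, 6 residual degrees of freedom) was fitted to the 9 arrays and all 23966 probe sets, 2-sided, with Benjamini-Hochberg adjustment over all of them and a threshold of 0.05. The steps were tested on simulated data. Alternatives were other normalisations, filters, variance priors, sample sets, a replicate block and leaving out each array. The fit has no block for the replicate number. Deviations from group means of equally numbered animals correlated at 0.158 to 0.378 for superovulated with stimulated, over 0.1 in all 3 pairs, which meets the rule for pairing in that comparison. They correlated at 0.078 to 0.353 for superovulated with control and -0.04 to 0.276 for stimulated with control, which does not; the blocked fit is an alternative.

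The genes and lists were chosen with earlier results of these data known. Named are all probe sets of the 8 genes, the 2 genes of each cholesterol list with the smallest p in each comparison, SREBF2, SCAP, INSIG2, MYLIP and STAR (further genes of this rule are not reported here), and the 5 other genes most like the mean of the 8. Others are named as list members, or were chosen after their values were seen (NSDHL, TM7SF2, MVD, ACLY, FASN, SREBF1 and TMEM97 for their likeness). Correlations are Pearson's r and Spearman's rho, given with no p.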

Additional observations from a re-analysis of the deposited data

How the results depend on the processing

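The fold changes of the 8 genes were recomputed 366 times under the alternatives. None passed an adjusted p of 0.05 (lowest 0.284), 338 kept their direction and 28 reversed. Of the reversals, 8 came from settings other than an array left out, all for superovulated against control: HMGCS1 had 0.17 with the mean of its probe sets, 0.0122 with median centring and 0.0315 with quantile normalisation, FDFT1 0.0059 with the mean of its probe sets and 0.0556 on probe sets with no open run, SQLE 0.0078 with median centring and 0.0122 with quantile normalisation, and LSS 0.0518 on probe sets with no open run. Those last runs leave only dimmer probe sets of FDFT1 and LSS, and the other 6 genes gave no value there. With each array left out in turn, DHCR7 ran from -0.0386 to 0.087 for stimulated against control, HMGCS1 from 0.0115 to 0.12, FDFT1 from 0.048 to 0.42 and CYP51A1 from 0.0032 to 0.29, the lowest of these 3 genes without control replicate 3. For superovulated against control HMGCS1 ran from -0.0755 to 0.0501, FDPS from -0.0907 to 0.0995, FDFT1 from -0.38 to 0.0292, SQLE from -0.0996 to 0.10, CYP51A1 from -0.0667 to 0.22, DHCR7 from -0.11 to 0.27 and INSIG1 from -0.0898 to 0.0869. For superovulated against stimulated FDPS ran from -0.18 to 0.00902, CYP51A1 from -0.17 to 0.0213 and DHCR7 from -0.13 to 0.24, while LSS stayed between -0.50 and -0.29 and FDFT1 between -0.55 and -0.23. The cause of these shifts was not tested. The medians over the 8 genes ran from 0.03 to 0.19 for stimulated against control, -0.09 to 0.09 for superovulated against control and -0.18 to -0.01 for superovulated against stimulated.

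Over all probe sets, 1 passed for stimulated against control, 3 with the replicate block, and 0 to 2 with an array left out (0 without stimulated replicate 3, 2 without control replicate 2 or superovulated replicate 3). For superovulated against control 0 passed in limma, with 1486 at an unadjusted p under 0.05, 1 when only these 2 groups were fitted, and 0 to 1 with an array left out (1 without stimulated replicate 3). For superovulated against stimulated 1 passed, 2 with quantile normalisation, with median centring or on probe sets with no open run, and 1 to 3 with an array left out (3 without superovulated replicate 1). In the F test 1 passed, and 1 to 2 with an array left out. The cause was not tested. Of the 9 pairs of equal replicate number 7 correlate over 0.1, among them all 3 of superovulated with stimulated animals, and 6 of 9 arrays correlate best with their own number. For superovulated against stimulated the replicate block left LSS at an adjusted p of 0.284 and the other 7 genes above it, and it changed no other count by over 1.5 times. The alternatives for correlations between the genes were chosen after seeing the data. Arrays limit the precision by their number: 3 a group.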
